A study of Rattus norvegicus with 12 samples.

Results

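The genes described here are those of fatty acid oxidation and ketone body formation together with known targets of PPARA, the nuclear receptor that switches this programme on. They were taken by name from a list of 39 symbols, and 34 of them had a row among the 14692 genes of the rat liver table. No row was found under ECI1, ECI2, ACAA1A, ACAA1B or PLIN2, but ECI1 and ECI2 are the newer names of DCI and PECI, which were in the table. All 34 averaged at least 1 RPKM (reads per kilobase of transcript, scaled to the number of mapped reads) over the 12 columns, as did 8459 genes in all. By role, 17 act in mitochondria (4 of the carnitine shuttle, 10 enzymes of beta-oxidation and 3 of electron transfer), 6 are peroxisomal and 2 make ketone bodies, and the other 9 are PPARA itself, 3 genes of fatty acid entry, 2 thioesterases and 3 further PPARA targets.

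The study followed liver regeneration after partial hepatectomy (PH) in male adult Sprague Dawley rats, and asked how bile acids bear on it. Livers were taken at 0, 4, 12 and 24 h after PH in Control rats, which had a sham operation, and in 2 groups with a biliary fistula, which carries bile out of the body; one of these 2 groups received a bile acid infusion. All rats had their first surgery 24 h before PH, so the 0 h liver was already 1 day past an operation, and no liver of an unoperated rat was included. The groups keep the names of the sample titles, Control, BF and BA. The paper uses BF for the fistula alone and BA for the fistula with bile acid, whereas the sample descriptions put the infusion with the BF titles, so a difference between BF and BA is not assigned here to bile acid. Each of the 12 columns holds 1 combined value per gene for 1 group at 1 time, made from 1 run on a single rat and 1 run on the pooled RNA of 3 other rats. No spread between rats can be had from such a table, so no SD and no p-value is given, and the number of reads behind a value is unknown. Differences are given as log2 ratios of RPKM + 1, and a gene is counted as higher or lower when that ratio reached 1 in size, which is 2-fold.

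Fatty acids enter hepatocytes, are bound by FABP1 and are joined to coenzyme A by ACSL1. The carnitine shuttle then carries long chains into mitochondria, where beta-oxidation shortens them and the electron transfer flavoprotein passes the electrons on to the respiratory chain, while very long and branched chains are first shortened in peroxisomes. The liver turns much of the acetyl-CoA into ketone bodies during fasting, when fatty acids released by adipose tissue act as ligands of PPARA, which binds DNA with RXRA at direct repeats of a short motif and raises transcription of many enzymes of the pathway.

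Because several members share this receptor, their promoters were read from RefSeq for the GRCr8 build (250 bases before to 50 after each start, 300 in all). A promoter was found for 30 of the 34, and none was matched for ACADL, DECR1, ACAA2 and VNN1. The single motif AGGTCA, searched on both strands, was present in 6 of 30 (20%), against 16.2% of all 33469 promoters. A repeat of AGGTCA spaced by 1 base, the form PPARA binds, was found in 0 of 30 and in 0.0538% of all promoters. With any base allowed at the fourth place of each copy (AGGNCA), FABP1 alone among the 30 held the repeat, against 0.415% of all promoters. The looser repeat contains the strict one, and these windows end 250 bases before the start. The FABP1 promoter is shown because it held the repeat, in capitals, which reads AGGCCATAGGTCA on the strand opposite to the gene and lies 77 to 65 bases before the start (chr4:104749090-104749389, plus strand).
FABP1 promoter: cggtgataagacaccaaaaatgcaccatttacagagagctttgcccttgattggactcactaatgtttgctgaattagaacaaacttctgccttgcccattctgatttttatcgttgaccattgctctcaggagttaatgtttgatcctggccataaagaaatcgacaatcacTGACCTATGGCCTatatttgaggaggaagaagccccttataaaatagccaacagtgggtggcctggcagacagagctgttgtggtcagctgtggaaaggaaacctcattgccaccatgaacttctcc
The HADHA promoter is shown because this gene and HADHB, which encode the subunits of the mitochondrial trifunctional protein, are read in opposite directions from starts 301 bases apart. Their windows overlap by 200 bases, so the sequence below, on the plus strand at chr6:31907551-31907850, serves most of both.
HADHA promoter: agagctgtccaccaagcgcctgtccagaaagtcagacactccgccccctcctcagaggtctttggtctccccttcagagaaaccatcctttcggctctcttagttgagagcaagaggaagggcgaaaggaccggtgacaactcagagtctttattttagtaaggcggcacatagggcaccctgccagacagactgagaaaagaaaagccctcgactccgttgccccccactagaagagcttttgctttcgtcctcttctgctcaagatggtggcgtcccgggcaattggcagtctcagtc

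Some columns stood apart, and the values below are to be read with this in mind. In BA at 4 h albumin (ALB) was listed at 303637 RPKM, 30.9% of the column, against 41049 to 99928 RPKM in the other 11, and the column summed to 982826 RPKM against 727435 to 785092. Without ALB the sums of all 12 columns lay between 645657 and 703408 RPKM. In BF at 12 h the 7 pancreatic acinar markers summed to 129.98 RPKM, led by CTRB1 at 84.7 RPKM, whereas in the other columns they summed to 5.1 to 23.04 RPKM with CTRB1 at no more than 0.57 RPKM. CELA1 did not follow, at 6.03 RPKM in BF at 12 h against 22.5 RPKM in Control at 0 h. It made up most of the sum in each of the other columns. Of 6 adipocyte markers 5 were found and summed to 13.5 to 91.2 RPKM, highest in BA at 4 h, where FABP4 made up 77.3 RPKM, while ADIPOQ did not pass 2.03 RPKM and LEP did not pass 0.17 RPKM in any column. The 4 neutrophil markers went from 2.89 RPKM in Control at 0 h to 62.2 RPKM in Control at 12 h. In the fistula groups their sum was already 21.85 RPKM in BA and 22.09 RPKM in BF at 0 h. All but a trace was S100A8 and S100A9, with MPO at 0.07 RPKM or less. Of the 8 hepatocyte markers 7 were found and were abundant in every column. Their sum, most of it ALB, went from 140036 RPKM at 0 h to 78036 RPKM at 12 h in Control. It went from 121941 to 73285 RPKM in BA and from 126240 to 72126 RPKM in BF. Single markers did not all follow, since SERPINA1 in Control went from 14570 to 19085 RPKM. The part of these markers in the results was not tested, and in whole liver fewer cells of a type and less RNA per cell cannot be told apart.

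Across the 34 genes the median log2 ratio to 0 h was lowest at 12 h in Control (-0.78) and at 4 h in BA (-0.57) and BF (-0.37). The medians of all genes there were -0.16, -0.32 and -0.07. In Control 14 of the 34 were at least 2-fold lower at 12 h than at 0 h, against 9.95% of all genes, and 0 were higher, against 3.96%. After rescaling on the median gene CPT2 (-0.91), DECR1 (-0.94) and PECI (-0.91) fell short of 2-fold. In BA at 4 h 20 of the 34 had their lowest value of all 12 columns. This column was also the lowest for 37.7% of all genes. A further 9 were lowest in Control at 12 h, where 6.4% of all genes were lowest. The highest value fell in BA at 24 h for 17 of the 34, against 4.71% of all genes, and in Control at 0 h for 9 (26.5%), against 16.5%. ACOT1 is among the 17, and it reached the limit of 1 RPKM only through BA at 24 h. In BF 6 were lower and 2 higher at 4 h than at 0 h, against 6.94% and 5.13% of all genes. At 12 h 3 were lower and 1 higher in BF, against 5.15% and 2.46%, and at 24 h 3 were lower and 2 higher, against 1.88% and 9.27%. The shares of higher genes in BF (5.88%, 2.94% and 5.88%) were near or below those of all genes.

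**Figure D1:**
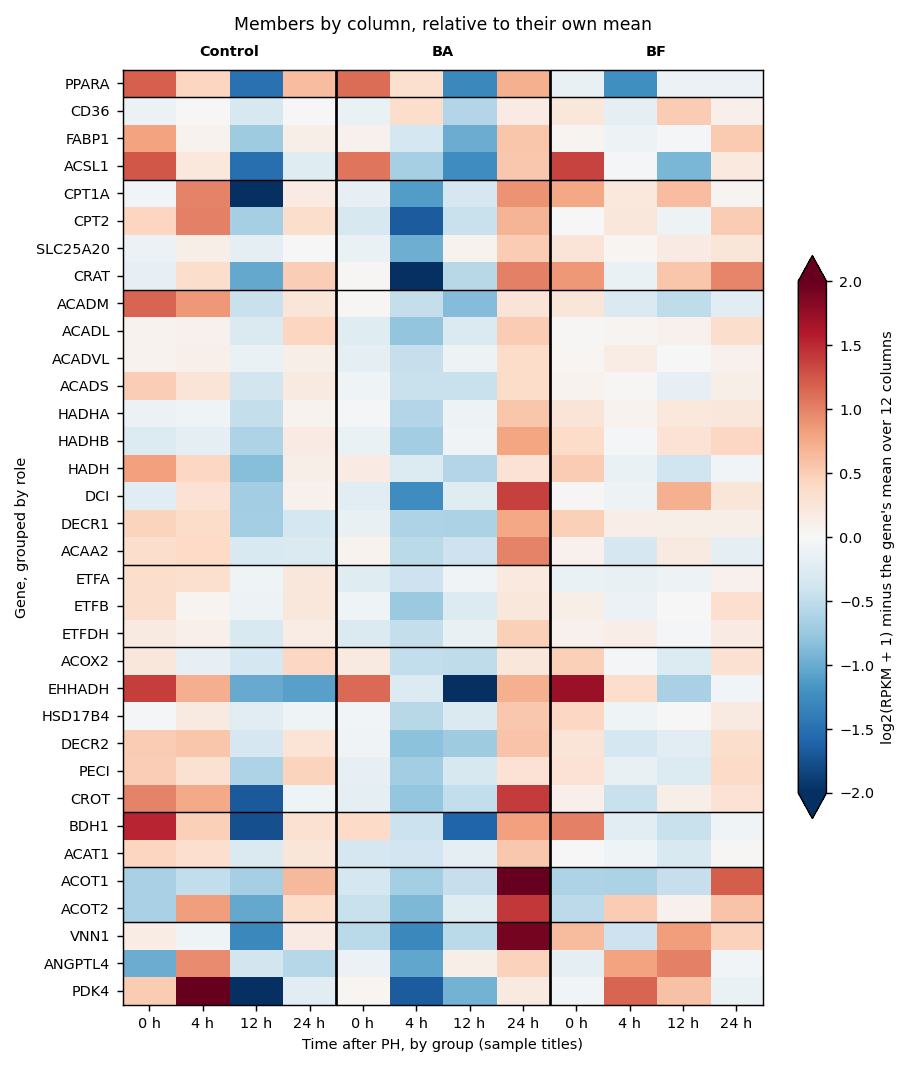
Each of the 34 genes in each of the 12 columns, as log2(RPKM + 1) minus the mean of that gene over the 12 columns, with the colour scale ending at 2 in either direction. The Control column at 12 h and the BA column at 4 h are mostly below the mean, and the BA column at 24 h is mostly above it.

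Few of the genes moved together in all 3 groups. At 4 h 1 gene, ACSL1, was at least 2-fold lower than at 0 h in every group, against 2.73% of all genes, and 0 were higher, against 1.71%. At 12 h ACSL1, EHHADH and BDH1 were lower in every group, 3 of 34 (8.82%) against 2.7% of all genes, and 0 were higher, against 0.414%. By 24 h 0 were lower in every group, against 0.662%, and 2, the thioesterases ACOT1 and ACOT2, were higher, against 2.54%. ACOT1 is among the genes counted only through BA at 24 h, since its mean over the other 11 columns was 0.46 RPKM, under the limit of 1 RPKM. Read without the BA column at 4 h, 2 genes were lower at 4 h in both other groups (ACSL1 and BDH1) and 2 were higher (ACOT2 and PDK4). Read without the BF column at 12 h, PPARA and FABP1 joined the genes lower at 12 h, making 5. Leaving out a column loosens the rule for every gene. The share of all genes under the looser rule was not computed, so these counts have nothing to be set against.

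PPARA, the receptor itself, did not follow one course in all groups. In Control it was listed at 30.5, 17.6, 3.91 and 20.1 RPKM at 0, 4, 12 and 24 h, and in BA at 28.8, 16.2, 4.67 and 21.6 RPKM, so both groups were at their lowest at 12 h. In BF it was 11.5, 4.87, 11.8 and 11.7 RPKM, with the low point at 4 h and the 12 h value back at the 0 h level. The log2 ratio of 12 h to 0 h was -2.68 in Control, -2.39 in BA and 0.04 in BF. Before PH the BF column was 2.53-fold below Control and 2.39-fold below BA, and at 4 h it was 3.17-fold and 2.93-fold below them. At 12 h the order was turned round, with BF 2.60-fold above Control and 2.25-fold above BA.

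Among the genes of fatty acid entry, ACSL1, the main acyl-CoA synthetase of liver, followed the same course in each group. It was listed at 749, 369, 111 and 267 RPKM in Control, at 668, 199, 134 and 463 RPKM in BA and at 813, 308, 168 and 364 RPKM in BF. Every group was lowest at 12 h, by 6.70-fold in Control, 4.96-fold in BA and 4.83-fold in BF against 0 h, and every 24 h value lay between the 12 h and the 0 h value of its group. The 4 h fall in Control, a log2 ratio of -1.02, was only just past the 2-fold limit, and it was -0.90 once the columns were rescaled on their median gene. FABP1, the fatty acid binding protein of hepatocytes, was the most abundant of the 34. It went from 8876 RPKM in Control at 0 h to 3101 RPKM at 12 h and from 5386 to 2566 RPKM in BA, whereas the 4 BF columns held 4736 to 7282 RPKM. CD36, a fatty acid translocase that liver makes little of, was listed at 1.48, 1.67, 1.15 and 1.72 RPKM in Control, at 1.46, 2.45, 0.80 and 2.03 RPKM in BA and at 2.15, 1.35, 2.84 and 1.90 RPKM in BF. Its 1 call, BF above BA at 12 h, rested on these low values.

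**Figure D2:**
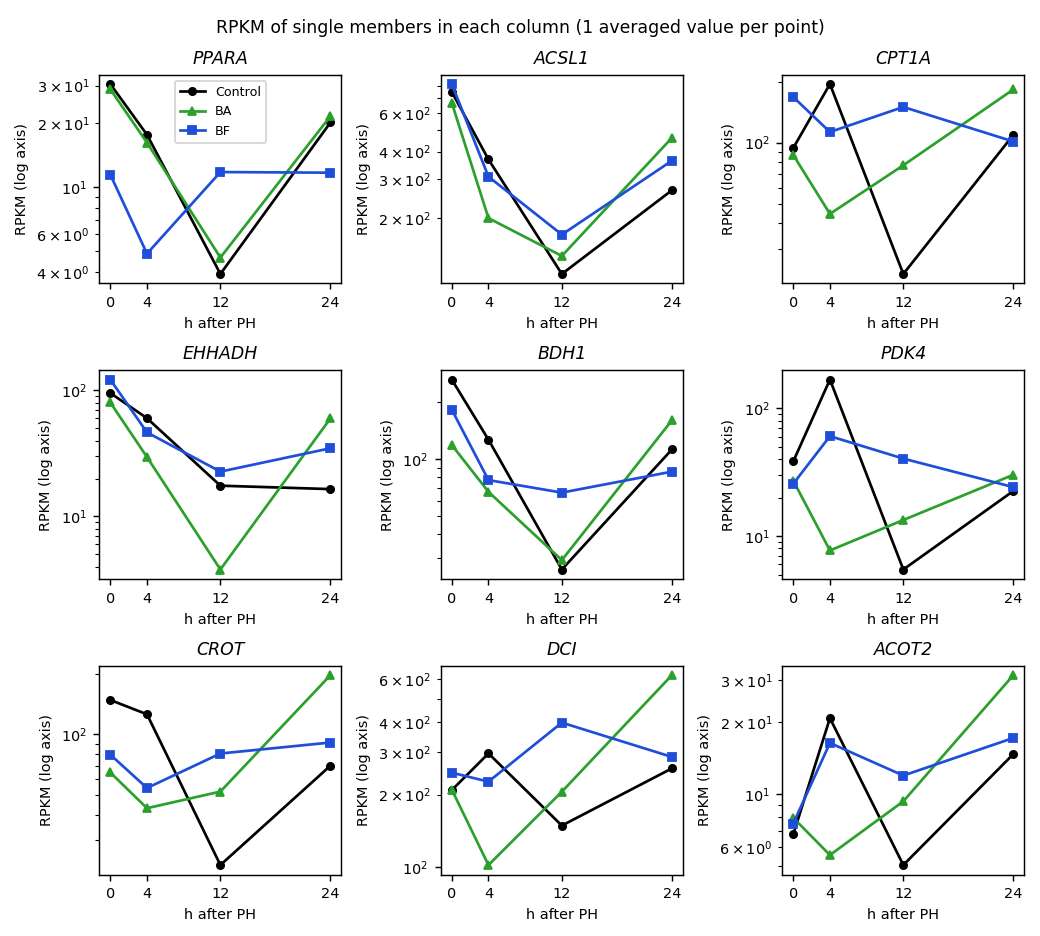
RPKM on a log axis against h after PH for PPARA, ACSL1, CPT1A, EHHADH, BDH1, PDK4, CROT, DCI and ACOT2, with 1 line for each of Control, BA and BF and 1 value per point. ACSL1 and BDH1 dip at 12 h in all 3 groups, and EHHADH dips there in BA and BF but stays low at 24 h in Control. PPARA, CPT1A, CROT and PDK4 dip at 12 h in Control and stay higher there in BF.

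The carnitine shuttle held the mitochondrial genes that differed most between groups. CPT1A, the outer membrane transferase that sets the rate of entry, was listed at 94.1, 195, 22.5 and 109 RPKM in Control, at 87.0, 44.5, 77.3 and 183 RPKM in BA and at 168, 113, 150.04 and 101 RPKM in BF. Control was thus 2.06-fold above 0 h at 4 h and 4.05-fold below it at 12 h, BA was lowest at 4 h and 2.09-fold above 0 h at 24 h, and BF stayed within 2-fold of its 0 h value. Rescaled on the median gene, the log2 ratio of CPT1A at 24 h to 0 h was 0.84 in BA and -1.10 in BF. Neither of these 24 h calls is therefore firm. CPT2, which remakes acyl-CoA inside the mitochondrion, showed the same high point in Control at 4 h, with 102, 153, 47.1 and 96.9 RPKM. Its BA values were 60.2, 23.1, 55.2 and 121 RPKM, and those of BF were 75.2, 88.9, 70.7 and 108 RPKM. At 4 h BA was 4.31-fold below Control for CPT1A and 6.39-fold below it for CPT2.

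CRAT, which moves short acyl groups between carnitine and coenzyme A, had its lowest value in the same BA column. It was 12.2, 18.0, 6.28 and 19.9 RPKM in Control, 14.0, 1.82, 9.12 and 28.9 RPKM in BA and 26.1, 12.5, 20.8 and 28.3 RPKM in BF. SLC25A20, the carrier that exchanges acylcarnitine for carnitine, varied less, with 92.6, 109.8, 87.3 and 101 RPKM in Control, 91.6, 50.8, 106 and 143 RPKM in BA and 120.4, 104, 113 and 119.6 RPKM in BF. For all 4 shuttle genes BA at 4 h was at least 2-fold below Control at 4 h, but SLC25A20 was not once the columns were rescaled on their median gene (log2 ratio -1.10, rescaled -0.88).

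Most enzymes of the mitochondrial spiral stayed nearer to their 0 h level. Of the acyl-CoA dehydrogenases, which take the first step for chains of different length, ACADVL ranged from 143 to 255 RPKM, ACADL from 153 to 380.12 RPKM and ACADS from 63.0 to 121 RPKM, and none of them came 2-fold from 0 h in any group. ACADM, the medium-chain enzyme, was the exception. It was 653, 530.1, 213 and 344 RPKM in Control, 296, 209, 159 and 350.04 RPKM in BA and 346, 239, 205 and 251 RPKM in BF. Both fistula groups already lay below Control at 0 h, BA by 2.20-fold, and Control came down to their level by 12 h, 3.06-fold below its own start. HADH, which oxidises hydroxyacyl-CoA of short and medium chains, was also more than 2-fold lower in Control at 12 h (402 to 125 RPKM, log2 ratio -1.67) and lay between 151 and 324 RPKM in the 8 BA and BF columns.

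HADHA and HADHB, the trifunctional protein genes that share the promoter region shown above, stayed close to each other in level. HADHA ranged from 123 to 272 RPKM and HADHB from 116 to 324 RPKM, both lowest in BA at 4 h and highest in BA at 24 h, and no ratio of either gene to 0 h or between groups reached 2-fold.

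DCI, DECR1 and ACAA2 shared a high value in BA at 24 h. DCI, the isomerase needed for unsaturated chains, was 209, 296, 149 and 257 RPKM in Control, 209.92, 102, 206 and 626 RPKM in BA and 247, 226, 398 and 287 RPKM in BF. DECR1, the dienoyl-CoA reductase of mitochondria, was 246, 233, 112 and 141 RPKM in Control, 163, 117, 115 and 309 RPKM in BA and 250.5, 198, 194 and 195 RPKM in BF. ACAA2, the thiolase that releases acetyl-CoA, was 264, 272, 168 and 168 RPKM in Control, 218, 142, 154 and 410.2 RPKM in BA and 218, 164, 234 and 180.2 RPKM in BF. For each of the 3 the BA column at 24 h was the highest of the 12, and it was more than 2-fold above Control at 24 h, with log2 ratios of 1.28 for DCI, 1.13 for DECR1 and 1.28 for ACAA2.

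The electron transfer genes kept near their 0 h level. ETFA ranged from 179.7 to 306 RPKM, ETFB from 142 to 307 RPKM and ETFDH, the oxidoreductase that hands the electrons to ubiquinone, from 123 to 238 RPKM. No ratio of these 3 genes reached 2-fold over time or between groups, and all 3 were lowest in BA at 4 h.

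Of the 6 peroxisomal genes EHHADH and CROT moved furthest. EHHADH, the bifunctional enzyme of the pathway for straight chains and a classical PPARA target, was listed at 95.5, 60.2, 17.5 and 16.5 RPKM in Control, at 80.3, 29.6, 3.79 and 60.1 RPKM in BA and at 122, 46.5, 22.7 and 34.8 RPKM in BF. At 12 h it was 17.0-fold below 0 h in BA and 5.20-fold below it in both Control and BF. By 24 h BA was back within 2-fold of its start, Control was still 5.52-fold below and BF 3.44-fold below. The groups did not keep one order, since BA was 3.87-fold below Control at 12 h and 3.5-fold above it at 24 h.

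CROT, which hands shortened chains from peroxisomes to carnitine, was 148, 126, 22.5 and 70.02 RPKM in Control, 64.8, 43.1, 52.1 and 197 RPKM in BA and 79.4, 54.3, 80.4 and 91.2 RPKM in BF. Control was 6.33-fold below its 0 h value at 12 h, a time at which neither fistula group had moved by 2-fold, and at 24 h Control was 2.10-fold below its start and BA 3.01-fold above its own. At 12 h both fistula columns lay above Control, BF by 3.46-fold and BA by 2.26-fold.

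The other peroxisomal genes kept closer to their 0 h level, and only PECI in Control at 12 h was 2-fold below it among these 4. That ratio was -0.91 once rescaled on the median gene, short of 2-fold. DECR2, the peroxisomal dienoyl-CoA reductase, was 107, 109.8, 58.8 and 90.1 RPKM in Control, 71.2, 41.9, 45.2 and 112 RPKM in BA and 89.0, 58.0, 63.9 and 95.1 RPKM in BF. PECI, an isomerase for unsaturated chains, was 169, 149, 78.4 and 165 RPKM in Control, 107, 73.8, 96.2 and 147 RPKM in BA and 147, 108, 99.6 and 158 RPKM in BF. DECR2 was more than 2-fold lower in BA than in Control at 4 h, and PECI lay at the limit (log2 ratio -1.0, rescaled on the median gene -0.79). ACOX2, the oxidase of branched chains and bile acid intermediates, ranged from 226 to 449 RPKM. HSD17B4, the bifunctional enzyme for the same substrates, ranged from 190.4 to 409 RPKM. No ratio of either gene to 0 h, or between groups at the same time, reached 2-fold.

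BDH1, which converts acetoacetate to 3-hydroxybutyrate, lost more of its level in Control than any other of the 34 genes at 12 h. It was listed at 263, 126, 26.1 and 112 RPKM in Control, at 119, 67.03, 29.2 and 160.02 RPKM in BA and at 182, 77.3, 66.4 and 85.7 RPKM in BF. The fall from 0 to 12 h was 9.74-fold in Control, 3.96-fold in BA and 2.72-fold in BF. BA began 2.21-fold below Control and was the 1 group above its start at 24 h (log2 ratio 0.43), while Control and BF were still 2.33-fold and 2.11-fold below theirs. ACAT1, the thiolase that works in both ketone body formation and breakdown, ranged from 81.3 to 156 RPKM with no ratio at 2-fold.

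ACOT1 and ACOT2, thioesterases that release fatty acids from coenzyme A in the cytosol and in mitochondria, were the genes higher at 24 h in every group. ACOT2 was 6.76, 20.8, 5.03 and 14.7 RPKM in Control, 7.94, 5.54, 9.31 and 31.5 RPKM in BA and 7.51, 16.4, 11.9 and 17.2 RPKM in BF. ACOT1 was listed at 0.02, 0.14, 0.01 and 1.52 RPKM in Control, at 0.26, 0.00, 0.16 and 13.5 RPKM in BA and at 0.04, 0.03, 0.16 and 2.71 RPKM in BF. ACOT2 was thus also above 0 h by 2-fold at 4 h in Control and BF but not in BA, and ACOT1 was above 1 RPKM at 24 h alone. The ratios of ACOT2 at 24 h in Control (1.02) and BF (1.09) were close to the limit and became 0.72 and 0.74 after rescaling on the median gene, whereas those of ACOT1 stayed past it. Near-copies lie side by side in this family, with the starts of ACOT1 and ACOT2 24434 bases apart, and how reads shared between such copies were assigned is not given in the sources used here, so the split between them is uncertain.

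PDK4, the kinase that holds back pyruvate dehydrogenase when fat is burnt, had the widest gap between groups at 4 h. It was 38.3, 167, 5.48 and 22.5 RPKM in Control, 27.2, 7.72, 13.4 and 30.2 RPKM in BA and 25.6, 60.4, 40.3 and 24.1 RPKM in BF. At 4 h Control was 4.28-fold and BF 2.31-fold above 0 h, and BA was 3.23-fold below, which left BA 19.3-fold below Control. At 12 h the order changed, Control being 6.06-fold below its start and BF 6.38-fold above Control.

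ANGPTL4, a secreted inhibitor of lipoprotein lipase, was 28.8, 113, 44.95 and 39.1 RPKM in Control, 53.9, 27.9, 63.7 and 80.7 RPKM in BA and 51.3, 102, 118 and 56.5 RPKM in BF. It shared with PDK4 the high value of Control at 4 h (3.83-fold above 0 h) and a BA column 3.95-fold below Control at that time, but it was not lower than 0 h in Control at 12 h. VNN1, a pantetheinase that recycles a precursor of coenzyme A, was 12.6, 10.4, 4.00 and 12.6 RPKM in Control, 7.42, 3.97, 7.43 and 44.95 RPKM in BA and 18.0, 8.15, 20.9 and 15.8 RPKM in BF. Its BA value at 24 h was 5.46-fold above 0 h and the highest of the 12 columns.

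Set side by side at 12 h, the mitochondrial genes had a median nearer to 0 h than the peroxisomal ones in all 3 groups. In Control at 12 h all 17 mitochondrial genes were below 0 h with a median log2 ratio of -0.49, all 6 peroxisomal genes were below with a median of -0.98, and the median of all genes was -0.16. At the same time the peroxisomal median was -0.48 in BA and -0.52 in BF, against mitochondrial medians of -0.12 and -0.09 and medians of all genes of -0.13 and -0.05. The mitochondrial median of BA at 12 h was 0.02 after rescaling on the median gene, so it has no firm sign. At 4 h the 2 classes lay at -0.55 and -0.62 in BA (all genes -0.32), at -0.21 and -0.53 in BF (all genes -0.07) and at 0.04 and -0.21 in Control (all genes -0.19), mitochondrial first. At 24 h the 2 medians were -0.03 and -0.14 in Control and 0.05 and -0.04 in BF, where all genes had medians of 0.21 and 0.28. Rescaled on the median gene they were -0.34 and -0.46 in Control and -0.32 and -0.42 in BF, which turns the sign of the mitochondrial median in BF. In BA all 17 mitochondrial genes were above 0 h at 24 h with a median of 0.76, and 5 of 6 peroxisomal genes were above with a median of 0.53, against 0.15 for all genes. The 2 ketone genes had medians below 0 in all 3 groups at 4 and 12 h, and most of it was BDH1, since ACAT1 stayed between -0.71 and 0.17 there.

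**Figure D3:**
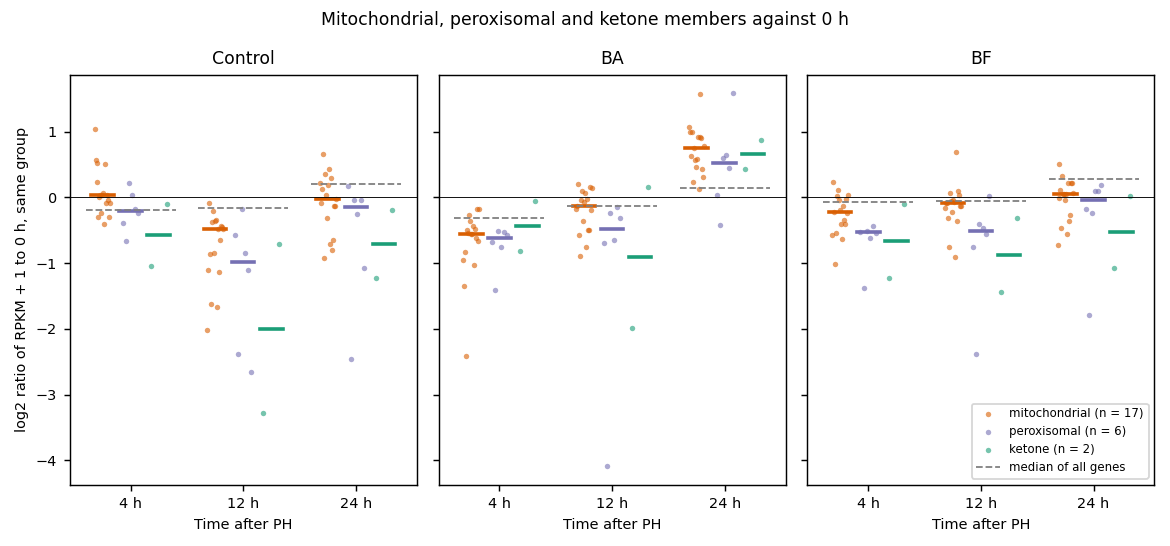
Log2 ratio of RPKM + 1 to 0 h for the 17 mitochondrial, 6 peroxisomal and 2 ketone genes at 4, 12 and 24 h in Control, BA and BF, with each gene as a point, the median of each class as a bar and the median of all genes as a dashed line. The peroxisomal medians at 12 h lie at -0.98, -0.48 and -0.52, and the mitochondrial median rises to 0.76 in BA at 24 h.

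The fistula groups were compared with Control at each time, the question being whether bile diversion shifted the pathway before and after PH. These comparisons use the same Control columns, so their values are set side by side and are not independent of each other. At 0 h 2 of the 34 genes were at least 2-fold apart between BF and Control (PPARA lower, CRAT higher), against 3.89% of all genes, and 4 after rescaling on the median gene, when CPT1A (log2 ratio 1.03) and ANGPTL4 just past the limit joined. There were 3 between BA and Control (ACADM, CROT and BDH1, all lower in BA), against 4.02% in either direction and 2.15% lower. BF and BA differed in 2 (PPARA lower and VNN1 higher in BF), against 1.82%.

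At 4 h BA was the lowest of the 3 groups for 32 of the 34 genes, against 59% of all genes. Between BA and Control 14 genes (41.2%) were 2-fold apart, all lower in BA, against 7.28% of all genes in either direction and 5.26% lower. The 14 took in the 4 genes of the carnitine shuttle and 4 of the 6 peroxisomal genes. The median of the 34 was -0.89, against -0.22 for all genes. This is the column in which albumin stood apart, and the count was 15 after rescaling on the total without ALB. After rescaling on the median gene it was 11, with SLC25A20 (-0.88), EHHADH (-0.79) and PECI (-0.79) no longer 2-fold apart. Between BF and Control 4 genes were apart, all lower in BF (PPARA, ACADM, CROT and PDK4), against 4.35% in either direction and 3.16% lower. Between BF and BA 9 were apart, against 4.72%, of which PPARA was lower in BF and the other 8, CPT1A, CPT2, SLC25A20, CRAT, DCI, ACOT2, ANGPTL4 and PDK4, were higher.

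By 12 h BF was the highest of the 3 groups for 30 of the 34 genes, against 30.2% of all genes, and Control the lowest for 22, against 27.2%. Between BF and Control 10 genes (29.4%) were 2-fold apart, all higher in BF, against 3.52% of all genes in either direction and 1.84% higher. CPT1A and PDK4 led the 10 at log2 ratios of 2.69 and 2.67, with VNN1 at 2.13. The column with pancreatic acinar markers is the BF one of this comparison. BA against Control, which does not use that column, had 4 genes apart against 1.71%, with CPT1A, CROT and PDK4 higher in BA by 3.34-fold, 2.26-fold and 2.22-fold and EHHADH lower. Between BF and BA 7 genes were apart, all higher in BF (PPARA, CD36, CRAT, EHHADH, BDH1, VNN1 and PDK4). Of all genes 1.92% were apart in either direction and 1.16% were higher in BF.

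The order changed again at 24 h, when BA was the highest for 30 of the 34, against 15.3% of all genes. Between BA and Control 9 genes (26.5%) were apart, all higher in BA, against 2.05% of all genes in either direction and 0.721% higher. The 9 were DCI, DECR1, ACAA2, EHHADH, CROT, ACOT1, ACOT2, VNN1 and ANGPTL4. ACOT1 reached the limit of 1 RPKM only through this BA column, with a mean of 0.46 RPKM over the other 11. It therefore gives no support to the counts of this paragraph that include it. Between BF and Control EHHADH was the 1 gene apart, at 2.05-fold and so close to the limit, against 2.08%. Between BF and BA 5 genes were apart, against 1.86% in either direction, and all 5 (DCI, ACAA2, CROT, ACOT1 and VNN1) were lower in BF, as were 0.969% of all genes. For BA against Control the median of the 34 went from -0.89 at 4 h to 0.18 at 12 h and 0.46 at 24 h. All genes had medians of -0.22, -0.06 and -0.17 there. For BF against Control the median of the 34 went from -0.32 to 0.53 and 0.10, against -0.07, -0.07 and -0.11 for all genes.

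**Figure D4:**
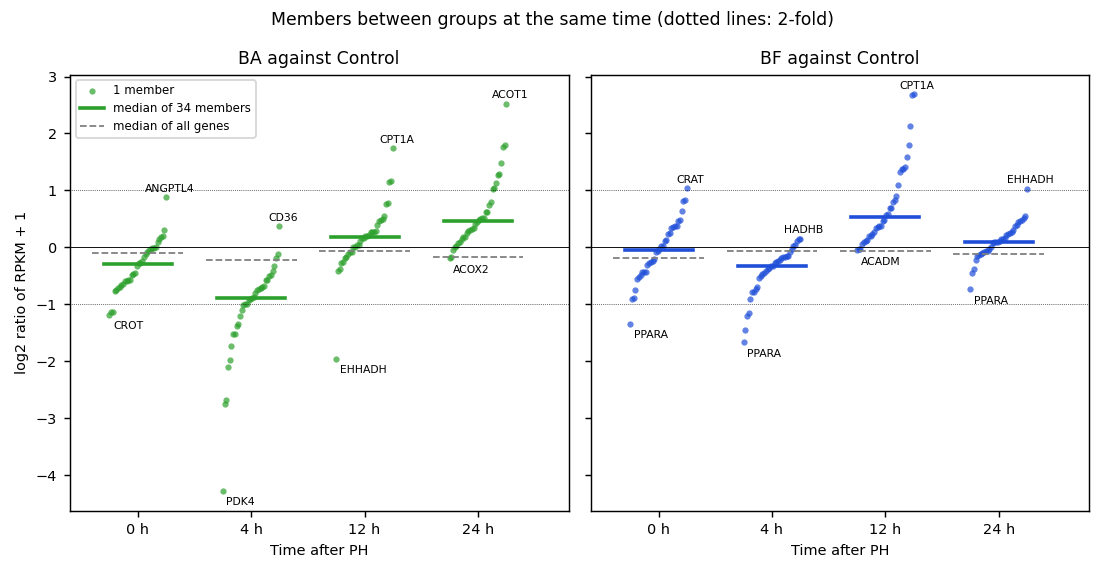
Log2 ratio of RPKM + 1 to Control at 0, 4, 12 and 24 h for BA and BF, with each of the 34 genes as a point, their median as a bar and the median of all genes as a dashed line. BA lies lowest at 4 h (median -0.89) and highest at 24 h (0.46), and BF lies highest at 12 h (0.53).

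The wider pathway was read from a second list of 75 genes, of which 65 were found and 59 averaged at least 1 RPKM. It takes in further acyl-CoA synthetases and thioesterases, peroxisome assembly factors, transporters and partners of PPARA. Shares of this list are over the 65, whereas those of all genes are over the genes that averaged at least 1 RPKM. At 4 h 4 of the 65 were lower in every group, among them PPARG, LPIN2 and G0S2, against 2.73% of all genes, and 2 (3.08%) were higher, against 1.71%. The 2 were PPARGC1A, a coactivator of PPARA, and LPIN1, a phosphatidate phosphatase that also acts with it. In the 3 columns of 0 h PPARGC1A ranged from 0.74 to 1.42 RPKM, and by 4 h Control, BA and BF held 4.35, 5.31 and 10.4 RPKM. LPIN1 ranged from 26.5 to 47.2 RPKM and then reached 266, 168 and 55.1 RPKM. The receptor and its coactivator therefore had no common direction at 4 h, PPARA being listed below its 0 h value in all 3 groups.

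At 12 h 9 of the 65 (13.8%) were lower in every group, against 2.7% of all genes, and none was higher. Among them were ACSM5, ACOT12, HACL1, AMACR, ACACB, SLC27A5, LPIN2 and CAT. Peroxisomes hold the products of CAT, HACL1 and AMACR. CAT, the catalase that breaks down the hydrogen peroxide of peroxisomal oxidation, dropped in Control from 1968 to 309 RPKM, in BA from 978 to 197 RPKM and in BF from 1067 to 360.03 RPKM. HACL1, a lyase for branched chains, went from 464 to 43.9 RPKM, from 153 to 26.8 RPKM and from 177 to 46.7 RPKM in the same order. AMACR, the racemase for branched chains and bile acid intermediates, went from 471 to 80.6 RPKM, from 498 to 92.5 RPKM and from 559 to 252 RPKM. ACACB, which makes the malonyl-CoA that holds back CPT1A, also fell in every group, from 9.77, 9.59 and 11.5 RPKM to 0.63, 0.53 and 0.49 RPKM in Control, BA and BF, and was the 1 gene of this list (1.54%) still lower in all 3 at 24 h, against 0.662% of all genes.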

How the data were processed

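Livers of 3 groups at 4 times gave 12 columns of RPKM in the table the authors deposited, each combining 2 runs (1 rat, and the pooled RNA of 3 rats). Libraries were made from poly(A) RNA with a TruSeq kit and sequenced as single reads. The submitters' processing notes name CASAVA, Bowtie 0.12.2 and the builds rn4 and mm8 without their roles. The paper states that the RPKM values of the 4 rats were averaged, while the weight of each run, the gene annotation and the counter are not given in the sources used here. Depth is unknown: the lowest value above 0 is 0.01, the rounding step, in every column. Of 14692 genes 1 had no value.

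Columns were assigned to samples by title. Log2 ratios of RPKM + 1 were computed over all genes with Python 3.11.15, pandas 2.3.3 and numpy 2.4.6, and shares of all genes refer to the 8459 that averaged 1 RPKM or more. No test was run, since each group and time has 1 column. The members, gene lists and marker lists were chosen with earlier results of these data known. All members found were named. Those at least 2-fold from 0 h in all groups or at least 2-fold apart between groups were given in every column, and other pathway genes were named only where they passed 2-fold in all groups at 1 time. Alternatives were a pseudocount of 0.1 RPKM, no filter, rescaling on the median gene, exchange of the BF and BA names and leaving out BF at 12 h. Rescaling on the total without ALB and leaving out BA at 4 h were chosen after seeing the data. Scripts were tested on simulated data. Protein sequences were not analysed here, and promoters came from RefSeq (GRCr8), not the build of the table. 1 gene of the wider pathway list is counted but its values are not reported here.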

Additional observations from a re-analysis of the deposited data

Results flagged for a closer look

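For 2 genes the groups moved at least 2-fold from 0 h in opposite directions. The differences were not tested, since each group and time has 1 column. PDK4 at 4 h had log2 ratios of 2.099 in Control and 1.206 in BF but -1.691 in BA, the column in which albumin took 30.9% of the total. Rescaled on the median gene, the 3 ratios of PDK4 were 2.21, 1.22 and -1.47. CROT at 24 h had log2 ratios of -1.07 in Control, 1.588 in BA and 0.1973 in BF, which became -1.38, 1.36 and -0.18 after the same rescaling.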

How the results depend on the processing

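With a pseudocount of 0.1 RPKM no class median changed sign or crossed the 2-fold limit, while 10 of 36 counts rose by 1 or 2 genes. Leaving out the filter could not change any of the 96 values, because all 34 genes pass it, and the shares of all genes were not recomputed. No paired analysis was possible because the columns carry no replicate values, so none could be left out either, and the groups were not paired over times, which are not replicates. Rescaling on the median gene gave 0 genes lower at 4 h and 1 higher at 24 h in all groups, and 4 apart between BF and Control at 0 h. Counts within single groups moved too. In Control at 24 h FABP1 (-1.005), ACADM (-1.24), HADH (-1.02), DECR1 (-1.11) and PDK4 (-1.04) also came to lie 2-fold below 0 h. In Control at 4 h ACSL1 (-0.90) and BDH1 (-0.93) no longer did. With BDH1 at -1.53 and ACAT1 at -0.50, the ketone median of Control at 24 h passed 2-fold. Under this rescaling 4 medians turned sign. The mitochondrial ones became 0.023 for BA at 12 h against 0 h, 0.14 for BF against Control at 0 h and -0.32 for BF at 24 h against 0 h. The median of the other PPARA targets became -0.29 for Control at 24 h. The peroxisomal median of BA against Control at 4 h became -0.79, short of 2-fold. Rescaling on the total without ALB, chosen after seeing the data, gave 1 gene higher at 24 h in all groups, 0 apart between BF and Control at 24 h and a peroxisomal median of -1.07 for Control at 12 h, now past 2-fold. It turned the sign of the other PPARA targets in BA at 12 h (-0.0073) and Control at 24 h (-0.064) and of the peroxisomal genes in BF against Control at 0 h (-0.079). Without the BA column at 4 h 2 genes were lower and 2 higher at 4 h. Without the BF column at 12 h 5 were lower at 12 h, and no share of all genes was computed for these counts. The cause of these shifts was not tested.

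Exchanging the names BF and BA, as the sample descriptions would have them, swaps the values of the 2 groups by construction. BF would then have 14, 4 and 9 genes apart from Control at 4, 12 and 24 h, and BA 4, 10 and 1. Against 0 h the medians of the other PPARA targets would be 0.98 for BA and -0.93 for BF at 4 h, and at 24 h the peroxisomal, ketone and other PPARA target medians would be -0.040, -0.53 and -0.084 for BA and 0.53, 0.66 and 0.57 for BF. The peroxisomal medians against Control would be -0.41, -1.0 and -0.12 for BF at 0, 4 and 12 h, and 0.026, -0.41 and 0.29 for BA. BF against BA would turn sign throughout, to -0.29, -0.64, -0.35 and 0.33 for mitochondrial genes and -0.39, -0.47, -0.40 and 0.29 for peroxisomal genes at 0, 4, 12 and 24 h. Depth is unknown, so the precision of low values such as those of CD36 and ACOT1 cannot be given.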
